A study of Mus musculus with 27 samples.

Results

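The 40 interferon-stimulated genes described here were chosen by symbol from the 26801 genes of a table of read counts, with Ensembl gene IDs matched to mouse gene symbols on build GRCm38. All 40 had a row, 30 had enough reads to be tested and 10 did not. Interferons bind receptors on the cell surface and activate JAK kinases, which phosphorylate STAT proteins. After type I interferon, a complex that includes STAT2 and IRF9 binds the interferon-stimulated response element (ISRE), while interferon gamma acts through the gamma-activated site (GAS). The genes switched on in this way encode sensors of foreign nucleic acid, enzymes that block viral replication, GTPases that attack vacuoles holding pathogens, and regulators of the pathway itself, and T cells make and answer interferons during activation.

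The RNA came from mouse CD4+ and CD8+ T cells that lacked one of the mTOR complexes. Raptor (gene Rptor) is the defining subunit of mTOR complex 1 and Rictor that of mTOR complex 2, the kinase complexes that link nutrients and growth signals to metabolism. The cells were enriched with magnets from a pool of lymph node and spleen cells, kept for 48 hours, and sorted by flow cytometry as MFG-E8- and 7-AAD-, which removes dead and dying cells. Stimulated cultures were plated on anti-CD3 and anti-CD28 antibodies at 10 µg/ml, which engage the T cell receptor and a costimulatory receptor, and resting cultures received the survival cytokine IL-7 at 5 ng/ml in place of the antibodies.

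There were 9 groups of 3 libraries. Rictor KO cells (B6-Tg(Cd4-cre)1Cwi-Rictortm1.1Klg) were stimulated CD8+ cells. Raptor KO cells (B6-Tg(Cd4-cre)1Cwi-Rptortm1.1Dmsa) and WT cells (B6-wt) were each stimulated CD8+, stimulated CD4+, resting CD8+ and resting CD4+ cells. In both knockouts Cre was driven by Cd4 regulatory sequence, which is active in developing T cells before CD4+ and CD8+ cells part, so that both subsets are expected to carry the deletion. The WT mice are not labelled as carrying Cre. How many animals stand behind each library, and their age and sex, is not given in the sources used here. Nothing says that the 3 libraries of a group came from separate animals, so a p-value covers no more than the spread among these libraries.

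Libraries held 8640699 to 16817347 counts (median 11985929), of which the 45S pre-rRNA gene Rn45s took 81.1% to 88.4%. Without that gene 1522199 to 2515583 counts remained, and the 40 interferon-stimulated genes together had 1014 to 3819 counts per library (median 1898). Counts are therefore shallow for this group of genes, with a median of 31 counts per library for a tested one. Levels are given as CPM, that is counts scaled to library size by TMM factors with Rn45s left out. Rptor measured 19.8 ± 2.68 CPM in stimulated Raptor KO CD8+ cells and 23.5 ± 5.27 CPM in WT, and 22.1 ± 4.41 CPM in stimulated Raptor KO CD4+ cells and 26.3 ± 3.63 CPM in WT (SD, n = 3 each), with neither difference past the threshold (adjusted p = 0.51 and 0.427, edgeR quasi-likelihood). Rictor measured 39.1 ± 1.61 CPM in Rictor KO cells and 45.0 ± 7.19 CPM in stimulated WT CD8+ cells (SD, n = 3 each), also not past it (adjusted p = 0.961). Counts over a whole gene check little for an allele that loses only some exons, so the genotypes rest on the labels. All 9 T cell markers had counts in every group, Cd8a averaged 0.662 to 3.10 CPM in the CD4+ groups, and Cd4 averaged 0.771 to 2.76 CPM in the CD8+ groups. Among counts other than Rn45s, protein-coding genes took 31.8% to 47.8% in stimulated Raptor KO CD8+ libraries, against 49.9% to 62.5% in WT, and 33.4% to 46.5% in stimulated Raptor KO CD4+ libraries, against 38.9% to 63.6% in WT.

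Sequence just upstream of the start is shown for 6 of the genes that Raptor loss left higher in stimulated CD4+ cells. They are those with the smallest adjusted p in the Raptor comparisons among genes with a promoter sequence on hand. None was on hand for Ifi27, Zbp1 and Parp14. The sequences are RefSeq promoter windows on GRCm38.p6, written 5′ to 3′ as the 120 bases before the annotated start. Capitals mark an ISRE core (TTTC, any 2 bases, TTTC, or on the other strand GAAA, any 2 bases, GAAA) or a GAS (TTCNNNGAA, the same on both strands). The motifs were searched for separately on both strands and may overlap, as they do in the window of Bst2. Irf1 holds a GAS that begins 90 bases before the start, Ifi203 an ISRE core 35 bases before it and Trim30a an ISRE core 36 bases before it, while the stretches shown for Ifi209, Irf9 and Sp100 hold neither motif. Starts are those of RefSeq, which differ from the gene bounds given further on for some genes. A single start of each gene is shown. Irf1, Ifi203, Trim30a, Irf9 and Sp100 each have another RefSeq start, and the 250 bases before that one hold neither motif.
Irf1, chr11:53769894-53770013, + strand: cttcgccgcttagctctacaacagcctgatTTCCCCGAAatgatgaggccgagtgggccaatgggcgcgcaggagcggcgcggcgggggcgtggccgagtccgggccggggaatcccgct
Ifi203, chr1:173942493-173942612, - strand: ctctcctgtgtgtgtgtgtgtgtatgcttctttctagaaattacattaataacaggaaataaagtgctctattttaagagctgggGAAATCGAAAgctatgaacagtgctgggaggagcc
Trim30a, chr7:104465194-104465313, - strand: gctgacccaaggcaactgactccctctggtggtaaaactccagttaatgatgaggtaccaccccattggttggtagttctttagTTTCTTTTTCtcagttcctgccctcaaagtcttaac
Ifi209, chr1:173630739-173630858, + strand: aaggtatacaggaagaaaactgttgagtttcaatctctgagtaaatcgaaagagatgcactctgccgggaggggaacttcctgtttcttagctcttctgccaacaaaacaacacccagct
Irf9, chr14:55603865-55603984, + strand: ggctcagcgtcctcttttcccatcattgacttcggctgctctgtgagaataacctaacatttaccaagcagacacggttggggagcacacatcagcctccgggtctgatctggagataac
Sp100, chr1:85649868-85649987, + strand: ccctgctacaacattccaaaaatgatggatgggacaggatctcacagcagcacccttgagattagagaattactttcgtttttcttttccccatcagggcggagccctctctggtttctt

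Windows from 250 bases before to 50 bases after a start were on hand for 32 of the 40 genes. For 25 of these, letters just after a start were found near the beginning of a GENCODE transcript of the gene. That check gives the orientation and does not show that the starts coincide. An ISRE core stood in the windows of 17 of the 32 genes (53.1%), against 3.99% of the 27025 genes of the RefSeq table, and a GAS in 8 (25%), against 9.55%. Among the 9 genes with a window and a higher level in stimulated Raptor KO CD4+ cells, 3 held an ISRE core (33.3%) and 1 a GAS (11.1%). Among the 15 with a window that were tested and not called there, 9 held an ISRE core (60%) and 6 a GAS (40%). A match is a stretch of letters and was not tested for binding in these cells, and a window without one says nothing about sites elsewhere.

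**Figure D1:**
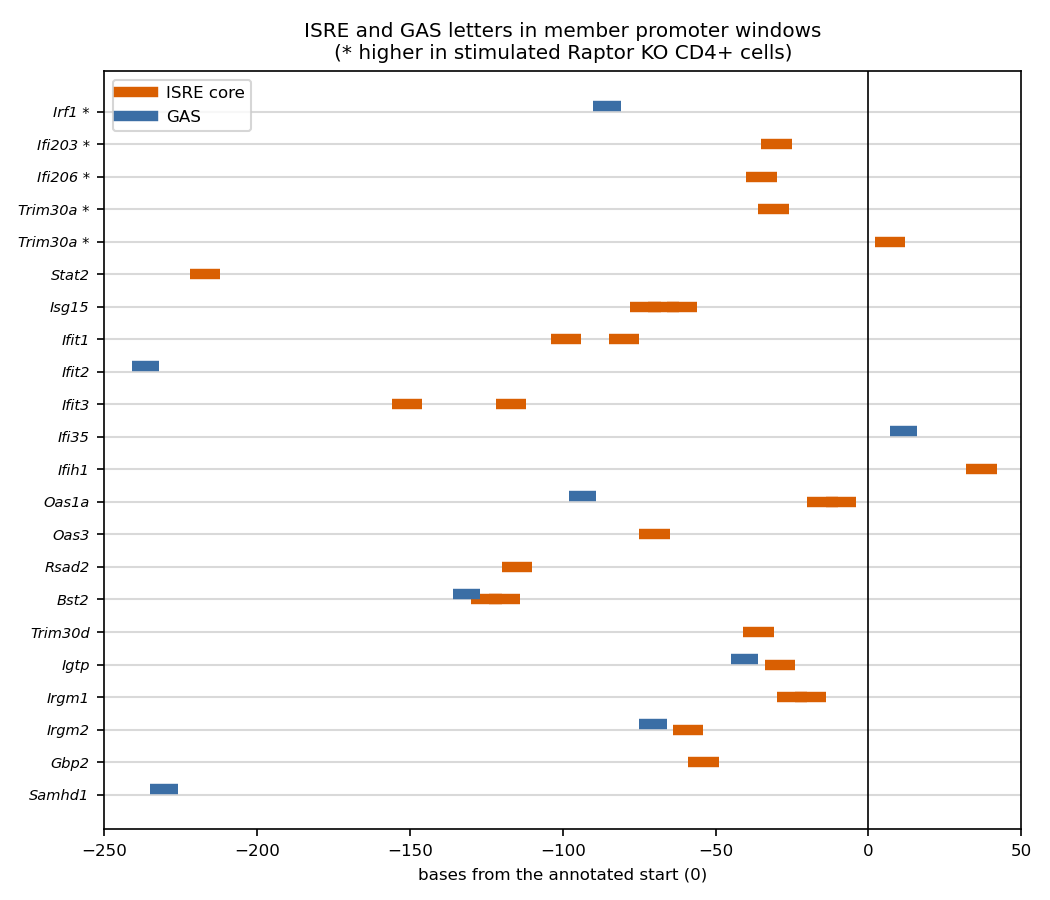
ISRE core and GAS letters in the promoter windows that hold at least 1, by distance in bases from the annotated start (x axis, 0 at the start); each row is a window, and an asterisk marks genes higher in stimulated Raptor KO CD4+ cells. Of the genes with an asterisk, Irf1 holds a GAS, Ifi203, Ifi206 and Trim30a hold an ISRE core, and Trim30a has a row for each of its starts.

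Levels per kilobase of exon allow genes to be set side by side. Averaged over stimulated groups, the highest were Igtp with 57.0 CPM per kb, Bst2 with 29.6 and Irf1 with 29.1, and over resting groups Ifi47 with 23.3, Sp100 with 23.0 and Samhd1 with 21.1. The 10 genes below the count filter include the textbook antiviral genes Isg15, Ifit1, Ifit3, Mx1, Rsad2, Oas1a, Oasl1, Oasl2, Ifi44 and Rtp4. Their totals over all 27 libraries ran from 7 counts for Ifi44 to 96 for Isg15, and no group average passed 4.45 CPM. Differences in them were largely not detectable at this depth, and none was tested in the main fit. Some counts stood apart beyond counting error, the only error that their intervals cover. Isg15 had 34 counts in stimulated WT CD8+ cells, against 2 in stimulated WT CD4+ cells (ratio 15.9, 95% interval 4.07 to 136). In resting WT CD8+ cells it had 1 (ratio 18.3, interval 3.06 to 743). Oasl1 had 1 count in stimulated Raptor KO CD8+ cells, against 11 in WT (ratio 0.128, interval 0.00296 to 0.878).

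**Figure D2:**
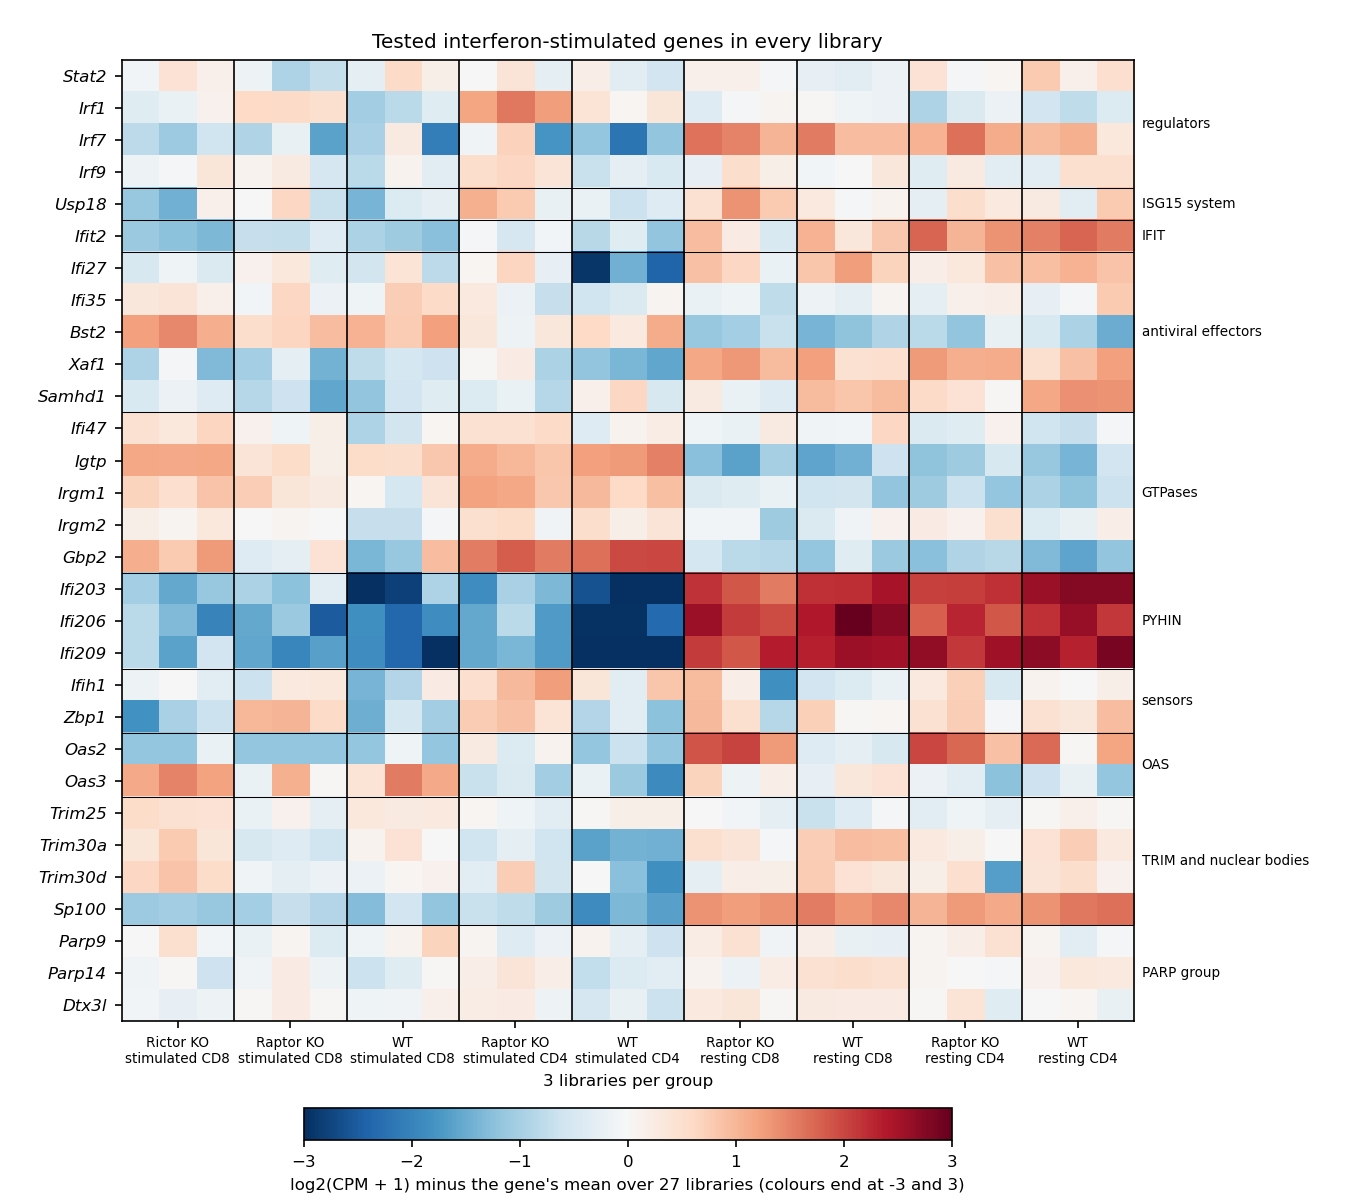
Level of the 30 tested interferon-stimulated genes (rows, ordered by role) in the 27 libraries (columns, 3 per group), as log2(CPM + 1) minus the mean of the gene over all libraries; red is above and blue below the mean, with colours ending at 3 and -3. The PYHIN genes Ifi203, Ifi206 and Ifi209 and the nuclear body gene Sp100 are red in resting and blue in stimulated libraries, and the GTPase genes Igtp, Irgm1 and Gbp2 run the other way in CD4+ cells.

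In stimulated CD4+ cells, 12 of the 30 tested genes were higher in Raptor KO than in WT and none was lower. They were the transcription factors Irf1 and Irf9, the nucleic acid sensor Zbp1, the PYHIN genes Ifi203, Ifi206 and Ifi209, the small effector genes Ifi27 and Xaf1, the TRIM and nuclear body genes Trim30a and Sp100, and the ADP-ribosylation and ubiquitin genes Parp14 and Dtx3l. The threshold throughout was an adjusted p under 0.05 in edgeR's quasi-likelihood test, adjusted by Benjamini-Hochberg over the 10493 genes tested. Across those genes 17.4% were called in this comparison, 8.82% higher and 8.56% lower. The median log2 fold change was 0.71 over the 30 genes and 0.04 over all tested genes, with 24 of the 30 positive. The libraries of the 2 groups did not overlap for 14 genes in the higher direction and 1 in the lower, where 17.1% and 16.3% of all genes did so. In bulk RNA, fewer cells that express a gene and less RNA per cell cannot be told apart.

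Among the regulators, Irf1 (ENSMUSG00000018899, chromosome 11, 53770014 to 53778374, plus strand) is the interferon regulatory factor that interferon gamma and T cell activation both induce. It measured 195, 258 and 205 CPM in the Raptor KO libraries, against 114, 88.2 and 110.4 CPM in WT. Every Raptor KO library lay above every WT library, the averages being 220 ± 34.0 and 104 ± 13.8 CPM (SD, n = 3 each), a log2 fold change of 1.08 ± 0.17 (SE) with adjusted p = 1.13e-05. Irf9 (ENSMUSG00000002325, chromosome 14), the DNA-binding subunit of the type I interferon complex, measured 35.3, 37.9 and 32.1 CPM in Raptor KO libraries, against 14.9, 19.6 and 17.3 CPM in WT. The groups stood apart, with a log2 fold change of 1.00 ± 0.24 and adjusted p = 0.00322. Stat2, its partner in that complex, measured 18.8, 24.8 and 15.1 CPM in Raptor KO libraries, against 21.4, 14.7 and 12.1 CPM in WT. Those libraries overlapped, and the log2 fold change of 0.33 did not pass the test (adjusted p = 0.405). Irf7, the factor that amplifies type I interferon production, was low, at 5.24 ± 4.35 CPM in Raptor KO and 1.44 ± 0.861 CPM in WT, and did not pass either (adjusted p = 0.1).

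The sensor Zbp1 (ENSMUSG00000027514, chromosome 2, 173206612 to 173218923, minus strand) binds nucleic acid in the Z conformation and can start inflammatory cell death. It measured 18.2, 20.0 and 14.2 CPM in Raptor KO libraries, against 5.19, 8.02 and 3.85 CPM in WT. The groups did not overlap, and the log2 fold change was 1.64 ± 0.36 with adjusted p = 0.00113. Ifih1, which encodes the RNA sensor MDA5, averaged 12.0 ± 3.30 CPM in Raptor KO and 7.75 ± 3.28 CPM in WT and was not called.

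The 3 PYHIN genes lie in a cluster on mouse chromosome 1 and encode nuclear proteins of the family that includes DNA sensors. All 3 passed the test as higher in Raptor KO, at low levels. Ifi203 (173920407 to 173942672, minus strand) measured 3.99, 8.27 and 6.14 CPM in Raptor KO libraries, against 1.95, 0.446 and 1.10 CPM in WT. That is 32 counts against 8 over the 3 libraries, and the log2 fold change was 2.41 ± 0.68 with adjusted p = 0.0127. Ifi209 (173630917 to 173647928, plus strand) measured 1.71, 2.07 and 1.42 CPM in Raptor KO libraries and had no count in any WT library. Set against a limit of 3 counts over the WT group it was 4.28-fold higher, without the counting error of the few Raptor KO reads (adjusted p = 0.00357). Ifi206 had 11 counts in the Raptor KO group and 2 in the WT group, a ratio of 7.67 with a 95% interval of 1.67 to 71.2 from counting error alone (adjusted p = 0.0262). These genes are close relatives, and reads that fit several of them may have been split or dropped in the counting, which is not described in the sources used here.

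Of the antiviral effectors, Ifi27 (ENSMUSG00000064215, chromosome 12, 103434211 to 103440239, plus strand), the gene of a small hydrophobic protein, had the clearest difference. It measured 12.0, 18.6 and 9.45 CPM in Raptor KO libraries, against 0.649, 3.56 and 1.38 CPM in WT, a log2 fold change of 2.74 ± 0.45 with adjusted p = 1.89e-05. The lowest Raptor KO library was above the highest WT library. Xaf1, a partner of the apoptosis inhibitor XIAP, had 12 counts in Raptor KO and 3 in WT, a ratio of 5.57 with a counting interval of 1.5 to 30.8 (adjusted p = 0.0397). Bst2, the tetherin that holds budding virus at the membrane, measured 18.8, 13.1 and 18.9 CPM in Raptor KO libraries, against 22.7, 18.3 and 33.0 CPM in WT, and the overlapping groups did not differ past the threshold (adjusted p = 0.0945). Samhd1, which degrades deoxynucleotides, measured 87.7, 101 and 63.8 CPM in Raptor KO libraries, against 129.7, 181 and 83.4 CPM in WT, with overlap and adjusted p = 0.118. Ifi35 was not called.

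Trim30a (ENSMUSG00000030921, chromosome 7, 104409025 to 104465193, minus strand), a mouse TRIM protein that restrains NF-kappaB signalling, measured 20.5, 26.2 and 20.8 CPM in Raptor KO libraries, against 9.73, 11.1 and 11.0 CPM in WT. All Raptor KO libraries were higher, and the log2 fold change was 1.05 ± 0.22 with adjusted p = 0.000634. Sp100 (ENSMUSG00000026222, chromosome 1, 85649988 to 85709998, plus strand), a scaffold of PML nuclear bodies, measured 42.1, 39.3 and 31.6 CPM in Raptor KO libraries, against 17.5, 25.8 and 20.9 CPM in WT. The groups stood apart, with a log2 fold change of 0.80 ± 0.17 and adjusted p = 0.0011. Trim25, the ubiquitin ligase of RIG-I signalling, measured 63.2, 55.1 and 47.7 CPM in Raptor KO libraries, against 62.3, 68.6 and 68.2 CPM in WT, and was not called. Trim30d, a close copy of Trim30a with which it may share reads, averaged 4.84 CPM in Raptor KO and 2.14 CPM in WT (adjusted p = 0.0847).

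Parp14 (ENSMUSG00000034422, chromosome 16), a mono-ADP-ribosyltransferase, measured 63.8, 72.4 and 63.8 CPM in Raptor KO libraries, against 33.1, 41.4 and 44.6 CPM in WT, a log2 fold change of 0.72 ± 0.17 with adjusted p = 0.00188. Dtx3l, a ubiquitin ligase that works in a complex with the PARP9 protein, measured 59.8, 60.0 and 45.3 CPM in Raptor KO libraries, against 35.7, 43.2 and 32.2 CPM in WT, a log2 fold change of 0.57 ± 0.17 with adjusted p = 0.013. Neither gene had overlapping groups. Dtx3l shares 458 exonic bases with Parp9 on the opposite strand, and the strand setting of the counting is not given in the sources used here. Parp9 itself averaged 18.3 CPM in Raptor KO and 17.2 CPM in WT and was not called.

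The 5 interferon-inducible GTPases were the role group without a called gene despite high levels, with a median log2 fold change of -0.04. Igtp, an immunity-related GTPase of the vacuole membrane, measured 129, 119 and 107 CPM in Raptor KO libraries, against 141, 145 and 171 CPM in WT. Every Raptor KO library was lower, yet the log2 fold change of -0.37 did not pass (adjusted p = 0.149). Ifi47, of the same family, measured 84.9, 84.8 and 92.1 CPM in Raptor KO libraries, against 46.7, 65.5 and 72.1 CPM in WT. Here every Raptor KO library was higher, and the log2 fold change of 0.49 did not pass (adjusted p = 0.152). With replicate number as a block in the fit Ifi47 was called higher (log2 fold change 0.51, adjusted p = 0.0109). Irgm1 averaged 85.2 ± 12.2 CPM in Raptor KO and 72.4 ± 9.65 CPM in WT, and Gbp2 105 ± 11.2 CPM in Raptor KO and 125 ± 16.0 CPM in WT. The remaining tested genes, Oas2 and Oas3 of the OAS enzymes that make 2-5A, Ifit2 of the RNA-binding IFIT family, and Usp18, the protease that removes ISG15, were not called. Usp18 was called higher with the replicate block (log2 fold change 1.15, adjusted p = 0.0368). Of the genes below the filter, Isg15, a ubiquitin-like modifier, had 11 counts in Raptor KO and 2 in WT (ratio 7.67, counting interval 1.67 to 71.2). Ifit1 had 14 in Raptor KO and 0 in WT (6.67-fold higher against a limit of 3 counts over the group). Both rest on few reads, and neither was tested in the main fit.

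**Figure D3:**
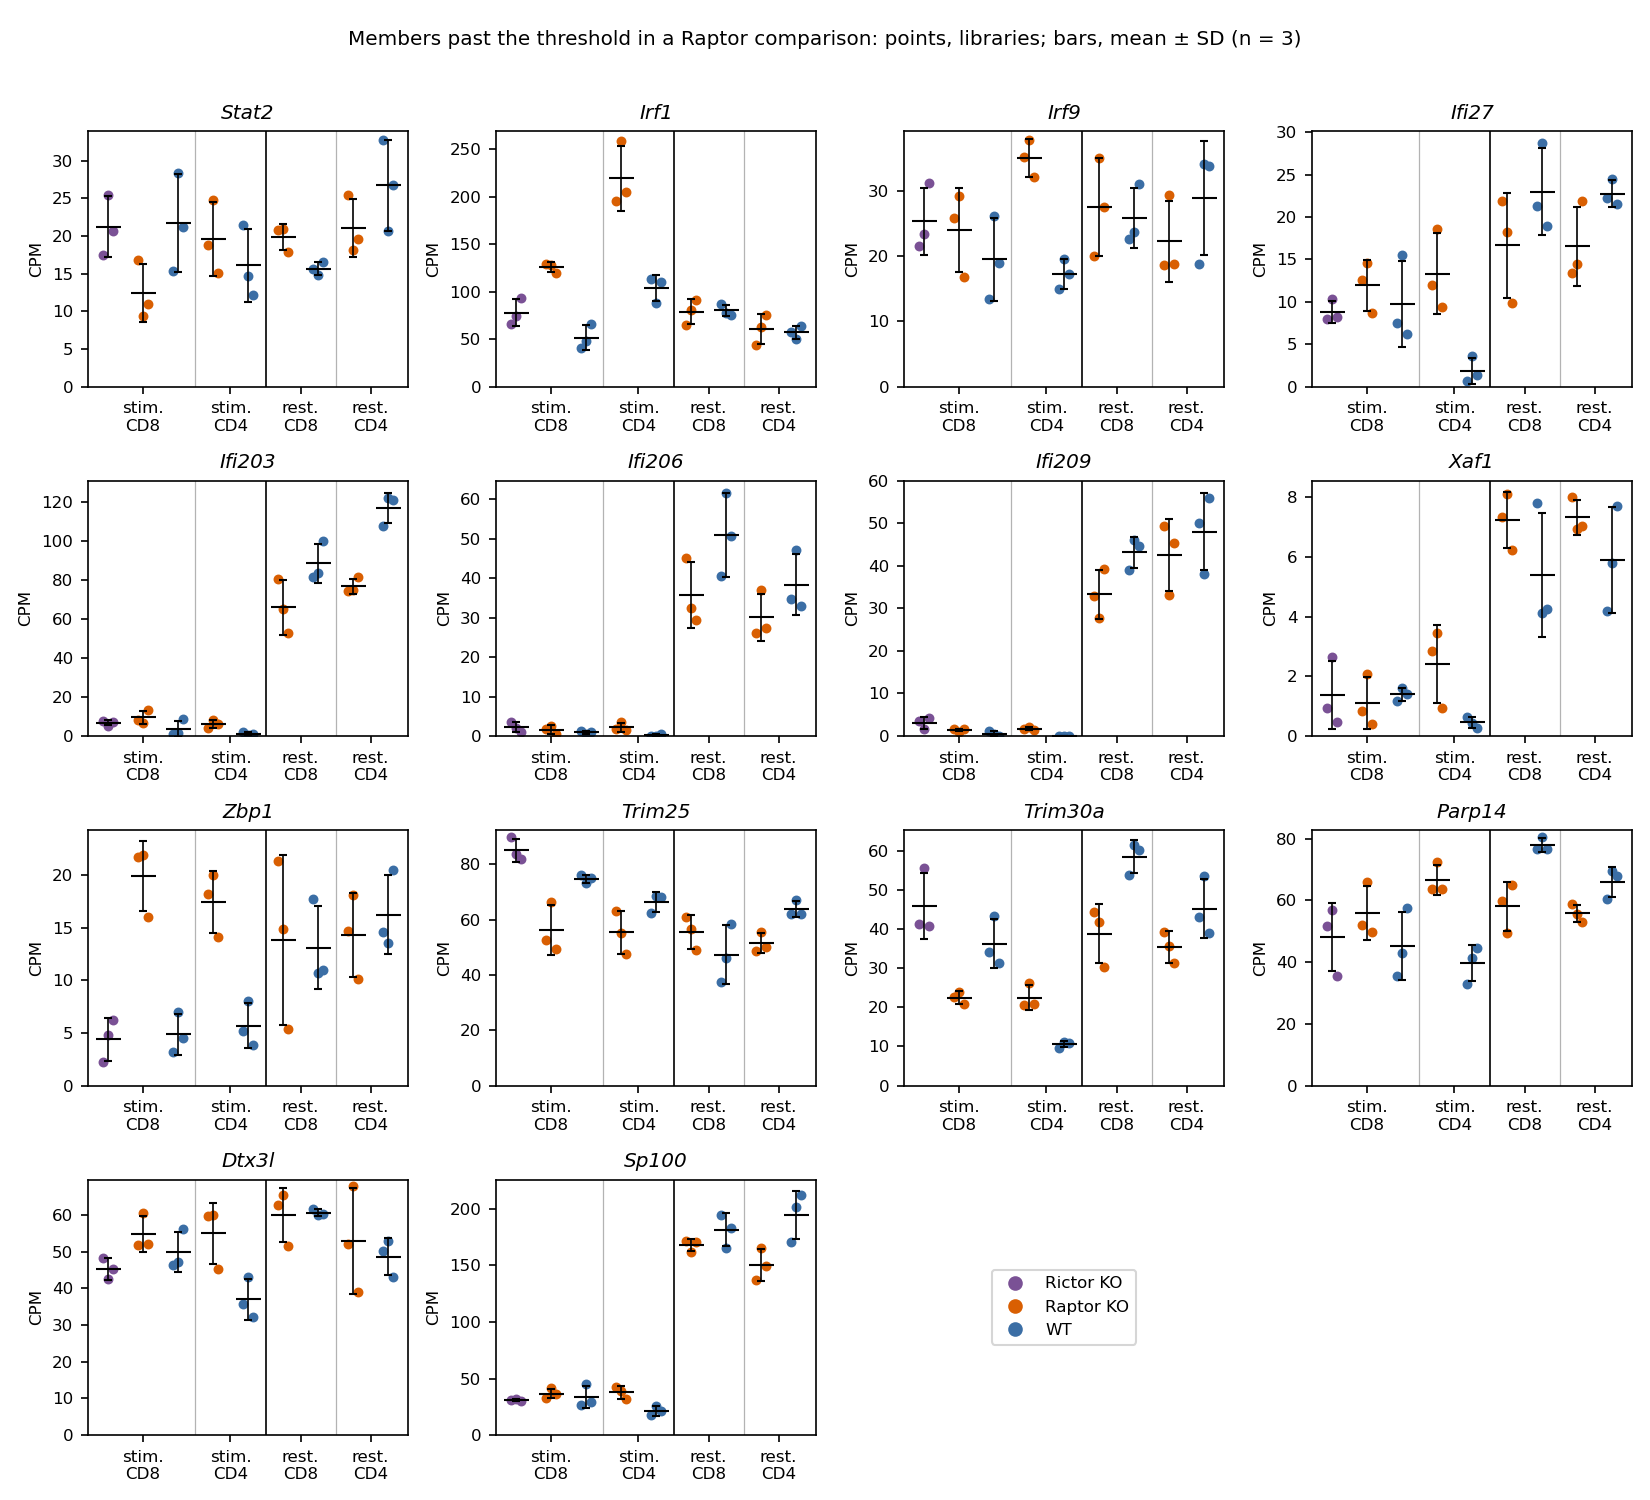
CPM in each library (points; y axis from 0 in every panel) with the mean and SD of 3 libraries (bars) for the 14 genes past the threshold in a Raptor comparison; purple is Rictor KO, orange Raptor KO and blue WT. In stimulated CD4+ cells the orange points of Irf1, Irf9, Zbp1, Ifi27, Trim30a, Sp100, Parp14 and Dtx3l lie above the blue points, and in stimulated CD8+ cells those of Irf1 and Zbp1 do, while those of Trim30a and Trim25 lie below.

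With Rn45s left in the totals the median of all genes moved to -0.46, the median of the 30 genes to 0.20, and 3 of the 30 remained called, all higher. These were Ifi27, Ifi203 and Ifi209, of which Ifi203 and Ifi209 had low counts. Irf1 lost its call there (log2 fold change 0.55, adjusted p = 0.343), as did Irf9, Zbp1, Trim30a, Sp100 and Parp14 among others. Leaving out single libraries gave 8 to 15 called genes. Xaf1 lost its call in 5 of the 6 omissions and Ifi203, Ifi206 and Dtx3l in 3 each. A lower call appeared in 2 of the 6, Bst2 without the second WT library (adjusted p = 0.0383) and Samhd1 without the third (adjusted p = 0.0261), each time beside 9 higher ones. With no filter on low counts, which tests all 40 genes, 11 were higher and 1, Samhd1, was lower (adjusted p = 0.00147). Xaf1 and Dtx3l lost their calls there, so the 11 include a gene below the filter of the main fit, not named here. The labels give each library a code that, outside Rictor KO, runs with the replicate number, and within the 3 numbers the median log2 difference between Raptor KO and WT over the 30 genes was 0.78, 0.69 and 0.49. Markers of other cell types moved with genotype: the summed myeloid list was 45.0 to 53.8 CPM in Raptor KO libraries, against 22.7 to 29.0 CPM in WT. In both groups 5 of its 9 genes had counts, and Adgre1, Fcer1g and Itgam were at 0 in both. Most of that sum was Ctss (cathepsin S), at 34.5 ± 4.13 CPM in Raptor KO and 13.7 ± 3.17 CPM in WT (adjusted p = 0.000181). The summed plasmacytoid dendritic cell list was 13.2 to 17.2 CPM in Raptor KO libraries, against 5.84 to 8.81 CPM in WT, made up mainly of Tcf4, with the defining genes Siglech and Klk1 at 0 in both. The 6 B cell markers summed to 16.5 to 41.4 CPM in Raptor KO libraries, against 11.7 to 20.9 CPM in WT, with all 6 detected in both. Their part in the result was not tested. With only protein-coding genes in the table, 12 of the 30 were again called, all higher.

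In stimulated CD8+ cells, 2 of the 30 genes, Irf1 and Zbp1, were higher in Raptor KO than in WT, and 3, Trim30a, Trim25 and Stat2, were lower. Among all tested genes 11.7% were called in this comparison, 6.3% higher and 5.42% lower. The median log2 fold change was 0.14 over the 30 genes and 0.03 over all genes, with 17 of the 30 positive. None of the PYHIN, effector, GTPase or PARP group genes was called.

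Irf1 measured 129.7, 128 and 119.6 CPM in Raptor KO libraries, against 40.6, 48.2 and 66.2 CPM in WT. Every Raptor KO library was higher, at a log2 fold change of 1.27 ± 0.17 with adjusted p = 1.01e-06. Zbp1 measured 21.8, 21.9 and 16.1 CPM in Raptor KO libraries, against 3.15, 6.96 and 4.53 CPM in WT. The groups were again apart, and the log2 fold change of 2.04 ± 0.36 had adjusted p = 7.22e-05. Trim30a measured 22.6, 24.1 and 20.8 CPM in Raptor KO libraries, against 34.3, 43.4 and 31.4 CPM in WT. All 3 Raptor KO libraries were lower, with a log2 fold change of -0.68 ± 0.19 and adjusted p = 0.0114. Trim25 measured 52.7, 66.4 and 49.4 CPM in Raptor KO libraries, against 76.1, 73.3 and 74.95 CPM in WT, a log2 fold change of -0.41 ± 0.14 with adjusted p = 0.0491. Stat2 measured 16.7, 9.41 and 11.0 CPM in Raptor KO libraries, against 15.4, 28.4 and 21.2 CPM in WT. Trim25 stood apart between the groups, while the highest Raptor KO library of Stat2 lay above its lowest WT library (log2 fold change -0.84 ± 0.26, adjusted p = 0.0259).

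The genes that were higher in CD4+ cells only by the threshold had these values in CD8+ cells. Ifi27 measured 12.6, 14.6 and 8.62 CPM in Raptor KO libraries, against 7.49, 15.5 and 6.22 CPM in WT (adjusted p = 0.555). Irf9 measured 25.9, 29.3 and 16.9 CPM in Raptor KO libraries, against 13.4, 26.2 and 18.9 CPM in WT. Both pairs of groups overlapped, and so did those of Sp100, with 32.6, 41.3 and 36.1 CPM in Raptor KO libraries, against 26.8, 45.0 and 29.1 CPM in WT. Parp14 measured 51.9, 65.9 and 49.8 CPM in Raptor KO libraries, against 35.5, 42.8 and 57.4 CPM in WT, and Dtx3l 51.9, 60.6 and 52.1 CPM in Raptor KO libraries, against 46.5, 47.1 and 56.3 CPM in WT. Ifi203 measured 8.37, 6.79 and 13.3 CPM in Raptor KO libraries, against 0.788, 1.61 and 8.48 CPM in WT, with a log2 fold change of 1.21 and adjusted p = 0.0756. The third WT library was the high one there, and it was also the highest WT library for Gbp2, at 63.9 CPM, where the other two had 12.2 and 14.5. Ifi206 and Ifi209 had 8 counts each in Raptor KO, against 8 and 4 in WT, and Xaf1 measured 0.837, 2.09 and 0.392 CPM in Raptor KO libraries, against 1.18, 1.61 and 1.41 CPM in WT. Of the high GTPase genes, Igtp measured 77.8, 87.3 and 67.8 CPM in Raptor KO libraries, against 88.3, 86.7 and 106 CPM in WT, and Ifi47 67.0, 55.9 and 69.0 CPM in Raptor KO libraries, against 31.5, 41.2 and 63.4 CPM in WT. These overlapped and were not called, as were the libraries of Bst2 (21.8, 23.5 and 28.6 CPM in Raptor KO, against 31.1, 25.7 and 35.6 CPM in WT) and Samhd1 (64.5, 75.8 and 39.2 CPM in Raptor KO, against 50.5, 77.6 and 90.2 CPM in WT). With replicate number as a block in the fit Ifi47 was called higher (log2 fold change 0.50, adjusted p = 0.0209).

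With Rn45s left in the totals the median of all genes moved to -0.49, and 2 of the 30 remained called, Zbp1 higher and Stat2 lower. Irf1 lost its call there (log2 fold change 0.71, adjusted p = 0.24), as did Trim30a and Trim25. With no filter on low counts, which tests all 40 genes, 3 were higher, Ifi203 among them, and 2 lower. The calls of Irf1 and Zbp1 held through each single omission, while Trim25 lost its call in 5 of the 6, Stat2 in 4 and Trim30a in 2. The count fell to 2 without the second WT library or without the third Raptor KO library. Without the third WT library it was 7, with 6 higher and 1 lower, so that the balance of directions turned. The higher genes gained there were Ifi203 (log2 fold change 3.05, adjusted p = 1.39e-05), Gbp2 (1.34, adjusted p = 0.000268), Irgm1 (0.66) and Ifi47 (0.82), and Trim25 and Stat2 were no longer called. Within the 3 replicate numbers the median log2 difference over the 30 genes was 0.28, 0.20 and -0.18. Summed myeloid markers were 63.8 to 71.8 CPM in Raptor KO libraries, with 8 of 9 genes detected, against 46.5 to 60.2 CPM in WT, with 6 of 9, and Itgam was at 0 in both. The summed plasmacytoid dendritic cell list was 8.36 to 17.6 CPM in Raptor KO libraries, against 3.11 to 5.35 CPM in WT, with Siglech and Klk1 at 0 in both. Their part in the result was not tested.

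**Figure D4:**
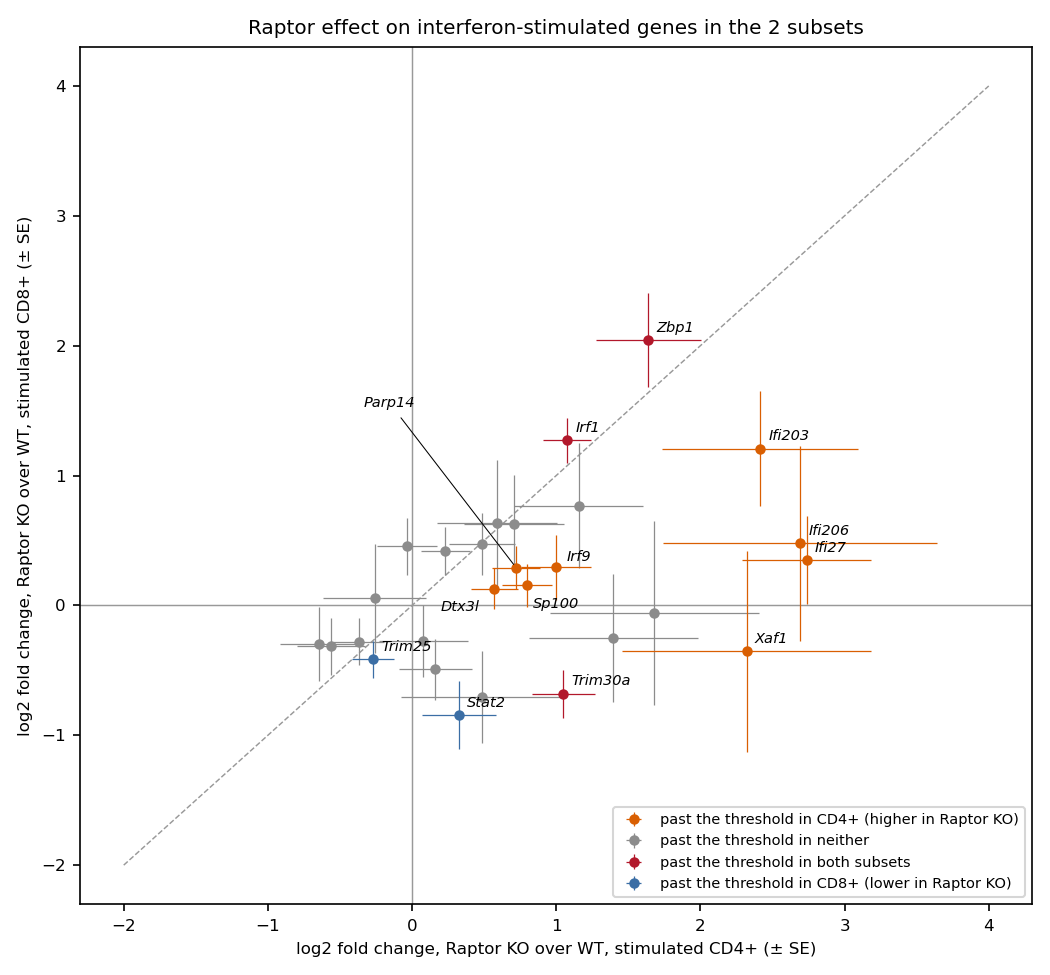
Log2 fold change of Raptor KO over WT in stimulated CD4+ cells (x axis) and stimulated CD8+ cells (y axis), with standard errors, for 28 of the 30 tested genes; Ifi209 and Oas2 are left out because a group without counts gives no standard error, and the dashed line marks equal values. Irf1 and Zbp1 lie in the upper right near the line, Ifi27 and Trim30a lie well below it, and Trim30a has values of opposite sign in the 2 subsets.

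The question of whether Raptor loss acts differently in CD8+ and CD4+ cells was put to the difference of the 2 fold changes itself. It passed the threshold for 2 of the 30 genes, Trim30a and Ifi27, where 0.334% of all genes did and 0.162% did with a lower value in CD8+ cells. For Trim30a the CD8+ fold change minus the CD4+ fold change was -1.73 ± 0.29 on the log2 scale (adjusted p = 0.00197), with libraries apart in opposite directions in the 2 subsets. For Ifi27 it was -2.39 ± 0.57 (adjusted p = 0.0415), with the CD8+ groups overlapping and the CD4+ groups apart. Over the 30 genes the median of this difference was -0.44, against 0.03 over all genes, with 21 of the 30 negative, 8 at an unadjusted p under 0.05 and 6 of those not called. For 15 genes both fold changes were positive, for 9 the CD4+ one alone, for 2 the CD8+ one alone, and for 4 neither was. Without the third WT CD8+ library Gbp2 was also called, with a higher value in CD8+ cells (1.60, adjusted p = 0.00306). The difference in Ifi27 lost its call when any of 9 single libraries was left out, and both were lost with Rn45s in the totals, while Trim30a stayed called through each single omission. The other genes called in 1 subset were not shown to differ between subsets.

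At rest Raptor loss gave no called gene among the 30, in either subset. In resting CD4+ cells 0.143% of all genes were called, 3 of the 30 genes had an unadjusted p under 0.05, and DESeq2 also called none. In resting CD8+ cells 1.12% of all genes were called, 5 of the 30 had an unadjusted p under 0.05, and DESeq2 called 1. The median log2 fold changes were -0.14 in CD4+ cells and -0.02 in CD8+ cells, against -0.01 and 0.00 over all genes. All Raptor KO libraries lay below all WT libraries for 5 of the 30 genes in CD4+ cells, where 6.94% of all genes did so, and for 5 in CD8+ cells, where 7.34% did. They lay above for 4 in CD8+ cells, where 6.87% did, and for none in CD4+ cells, where 5.33% did. The summed plasmacytoid dendritic cell list was higher at rest, at 50.7 to 62.6 CPM in Raptor KO CD4+ libraries, against 13.9 to 23.9 CPM in WT, and at 166 to 235 CPM in Raptor KO CD8+ libraries, against 51.9 to 76.4 CPM in WT. Most of it was Ccr9, a chemokine receptor gene that T cells also express, and Siglech was at 0 in all of these groups but resting WT CD8+ cells.

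Samhd1, among the 3 highest at rest per kilobase, measured 175, 158 and 119 CPM in resting Raptor KO CD4+ libraries, against 264, 303 and 299 CPM in WT. In resting CD8+ cells it measured 142, 101 and 89.1 CPM in Raptor KO libraries, against 225, 210.3 and 226 CPM in WT. All Raptor KO libraries were lower in both subsets, at log2 fold changes of -0.94 ± 0.27 (adjusted p = 0.281) and -0.98 ± 0.27 (adjusted p = 0.103). This lack of a call depended on the setting. With no filter on low counts Samhd1 was called lower in CD4+ cells (adjusted p = 7.58e-05) and in CD8+ cells (adjusted p = 4.19e-06). DESeq2 also called it lower in CD8+ cells (adjusted p = 0.0188). Sp100 measured 137, 165 and 149 CPM in resting Raptor KO CD4+ libraries, against 171, 201 and 212 CPM in WT. In CD8+ cells it measured 171, 162 and 171 CPM in Raptor KO libraries, against 195, 166 and 184 CPM in WT, with overlap. Ifi47 overlapped in both subsets, with 45.4, 47.6 and 67.2 CPM in Raptor KO CD4+ libraries, against 40.4, 37.4 and 60.1 CPM in WT, and 56.1, 53.4 and 74.0 CPM in Raptor KO CD8+ libraries, against 56.8, 57.5 and 95.2 CPM in WT. Oas2 measured 7.32, 8.11 and 4.46 CPM in resting Raptor KO CD8+ libraries, against 0.709, 0.821 and 0.61 CPM in WT. Those groups stood far apart on few reads, 29 counts against 3, a ratio of 9.73 with a counting interval of 3.01 to 49.9, and the test did not pass (adjusted p = 0.058). Oas2 did pass with no filter (adjusted p = 0.0401), with protein-coding genes only (0.0352) and with replicate number as a block (0.0312).

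The genes called in stimulated cells had these resting values. Irf1 measured 44.1, 62.6 and 75.1 CPM in Raptor KO CD4+ libraries, against 57.0, 49.7 and 64.2 CPM in WT, and 65.3, 81.1 and 90.9 CPM in Raptor KO CD8+ libraries, against 87.2, 78.0 and 75.6 CPM in WT. Zbp1 measured 14.7, 18.2 and 10.2 CPM in Raptor KO CD4+ libraries, against 14.6, 13.6 and 20.5 CPM in WT, and 21.4, 14.9 and 5.35 CPM in Raptor KO CD8+ libraries, against 17.7, 10.7 and 11.0 CPM in WT. Both genes overlapped between genotypes. Trim30a measured 39.4, 35.8 and 31.3 CPM in Raptor KO CD4+ libraries, against 43.1, 53.6 and 39.0 CPM in WT, and 44.5, 41.9 and 30.3 CPM in Raptor KO CD8+ libraries, against 53.9, 61.6 and 60.4 CPM in WT, where the groups were apart without a call (adjusted p = 0.127). Ifi27 measured 13.3, 14.4 and 21.9 CPM in Raptor KO CD4+ libraries, against 22.3, 24.5 and 21.6 CPM in WT, and 22.0, 18.2 and 9.80 CPM in Raptor KO CD8+ libraries, against 21.3, 28.8 and 18.9 CPM in WT. Ifi203 measured 74.1, 74.9 and 81.3 CPM in Raptor KO CD4+ libraries, against 108, 122 and 121 CPM in WT, and was lower in each of them without passing the test (adjusted p = 0.463). Trim25 measured 48.7, 55.6 and 50.04 CPM in Raptor KO CD4+ libraries, against 61.9, 67.1 and 62.1 CPM in WT, and Parp14 58.7, 55.6 and 53.2 CPM in Raptor KO CD4+ libraries, against 60.5, 69.7 and 67.8 CPM in WT. These too were lower in each Raptor KO library and not called. In CD8+ cells Stat2 measured 20.7, 20.9 and 17.8 CPM in Raptor KO libraries, against 15.6, 14.8 and 16.5 CPM in WT, apart and not called (adjusted p = 0.773). The libraries of Irf9, Ifi206, Ifi209, Xaf1 and Dtx3l overlapped between genotypes in both subsets. The number of the 30 genes whose Raptor effect differed between resting CD8+ and resting CD4+ cells was 0, by the same test that called 0 of all genes there, with 2 of the 30 at an unadjusted p under 0.05.

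Stimulated cultures differed from resting ones in the antibodies and also in the absence of IL-7. Of the 30 genes, 73.3% were called in WT CD4+ cells and 63.3% in WT CD8+ cells, the latter near the share of all genes. In WT CD4+ cells 17 of the 30 fell and 5 rose against resting cells, where 64.9% of all genes were called (32.4% higher and 32.5% lower), and the median log2 change was -0.77, against -0.03 over all genes. In WT CD8+ cells 14 fell and 5 rose, where 62.8% of all genes were called (32% higher and 30.8% lower), and the median was -0.62, against 0.00. The PYHIN genes fell most. Ifi203 averaged 1.16 ± 0.752 CPM in stimulated and 117 ± 7.83 CPM in resting WT CD4+ cells, a log2 change of -6.68 ± 0.42 (adjusted p = 2.71e-13). Ifi209 had no count in stimulated WT CD4+ cells and 48.1 ± 9.12 CPM in resting ones, 119-fold lower against a limit of 3 counts over the group. Ifi206 had 2 counts in stimulated and 187 in resting WT CD4+ cells (ratio 0.00711, counting interval 0.000855 to 0.0261), and Oas2 had 1 and 19 (ratio 0.035, interval 0.000842 to 0.22). In WT CD8+ cells Ifi209 fell by 6.25 ± 0.41 on the log2 scale, Ifi206 by 5.57 ± 0.38, Ifi203 by 4.36 ± 0.33 and Sp100 by 2.45 ± 0.16. Markers of other cell types moved with stimulation as well. The summed myeloid list was 22.7 to 29.0 CPM in stimulated WT CD4+ libraries, with 5 of 9 genes detected, against 44.5 to 59.1 CPM in resting ones, with 9 of 9. In WT CD8+ cells it was 46.5 to 60.2 CPM in stimulated libraries, against 40.2 to 61.0 CPM in resting ones. The summed plasmacytoid dendritic cell list was 5.84 to 8.81 CPM in stimulated and 13.9 to 23.9 CPM in resting WT CD4+ libraries, and 3.11 to 5.35 CPM in stimulated and 51.9 to 76.4 CPM in resting WT CD8+ libraries, where Ccr9 averaged 61.9 ± 10.5 CPM at rest and had no count after stimulation. Their part in the result was not tested.

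Of the 5 genes that rose in stimulated WT CD4+ cells, 3 were GTPases, Igtp, Irgm1 and Gbp2, and the other two were Bst2 and Irf1. Igtp averaged 153 ± 16.3 CPM in stimulated and 29.3 ± 9.14 CPM in resting WT CD4+ cells, and Bst2 24.7 ± 7.57 CPM in stimulated and 7.39 ± 2.92 CPM in resting ones. Gbp2 averaged 125 ± 16.0 CPM in stimulated and 12.2 ± 1.79 CPM in resting WT CD4+ cells. In CD8+ cells Igtp averaged 93.7 ± 10.7 CPM in stimulated and 26.3 ± 10.6 CPM in resting WT cells, and Bst2 30.8 ± 4.98 CPM in stimulated and 6.01 ± 1.20 CPM in resting ones. Irf1 rose in stimulated WT CD4+ cells (log2 change 0.86, adjusted p = 4.4e-05) and fell in stimulated WT CD8+ cells (log2 change -0.62, adjusted p = 0.00233). It averaged 104 ± 13.8 CPM in stimulated and 57.0 ± 7.25 CPM in resting WT CD4+ cells, and 51.7 ± 13.1 CPM in stimulated and 80.3 ± 6.13 CPM in resting WT CD8+ cells. With Rn45s in the totals the WT CD8+ calls became 9 higher and 6 lower, as the median of all genes moved to 0.75. In Raptor KO cells 7 rose and 10 fell in CD4+ cells, 56.7% of the 30 (52% of all genes called, 27.9% higher and 24.1% lower). In Raptor KO CD8+ cells 4 rose and 11 fell, 50% of the 30 (55.6% of all genes called, 29.5% higher and 26% lower). In Raptor KO cells Ifi209, Ifi206 and Ifi203 fell by 4.59 ± 0.36, 3.83 ± 0.39 and 3.65 ± 0.35 on the log2 scale in CD4+ cells, and Ifi206, Ifi209 and Ifi203 by 4.60 ± 0.40, 4.48 ± 0.39 and 2.74 ± 0.32 in CD8+ cells. Gbp2 rose by 2.69 ± 0.46 in Raptor KO CD4+ cells (adjusted p = 6.07e-05). Oas2 had 0 counts in stimulated and 29 in resting Raptor KO CD8+ cells (12.5-fold lower against a limit of 3 counts over the group).

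The response to stimulation differed by genotype for 10 of the 30 genes in CD4+ cells, all with a higher value in Raptor KO, where 5.82% of all genes were called and 3.57% were higher. Sp100, Ifi203, Ifi206, Ifi209 and Trim30a fell in both genotypes, and their fall was smaller in Raptor KO cells. Irf9 rose in Raptor KO (log2 change 0.62, adjusted p = 0.0354) and fell in WT (log2 change -0.75, adjusted p = 0.00925), and Irf1 rose by 1.86 in Raptor KO CD4+ cells, against 0.86 in WT. The remaining 3 were Zbp1, Ifi27 and Parp14, which fell in WT and were not called in Raptor KO. In CD8+ cells the response differed for 2 of the 30 genes, Irf1 and Zbp1, where 2.89% of all genes were called and 1.7% were higher. Irf1 rose in stimulated Raptor KO CD8+ cells (log2 change 0.67, adjusted p = 0.00112) and fell in WT. Among single omissions Zbp1 lost this call in 7 in CD8+ cells and 4 in CD4+ cells, and Ifi206 in 7 in CD4+ cells. In Raptor KO cells the summed plasmacytoid dendritic cell list was 13.2 to 17.2 CPM in stimulated and 50.7 to 62.6 CPM in resting CD4+ libraries, and 8.36 to 17.6 CPM in stimulated and 166 to 235 CPM in resting CD8+ libraries. The myeloid list was 45.0 to 53.8 CPM in stimulated and 49.2 to 52.1 CPM in resting Raptor KO CD4+ libraries, and 63.8 to 71.8 CPM in stimulated and 41.0 to 62.8 CPM in resting Raptor KO CD8+ libraries.

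**Figure D5:**
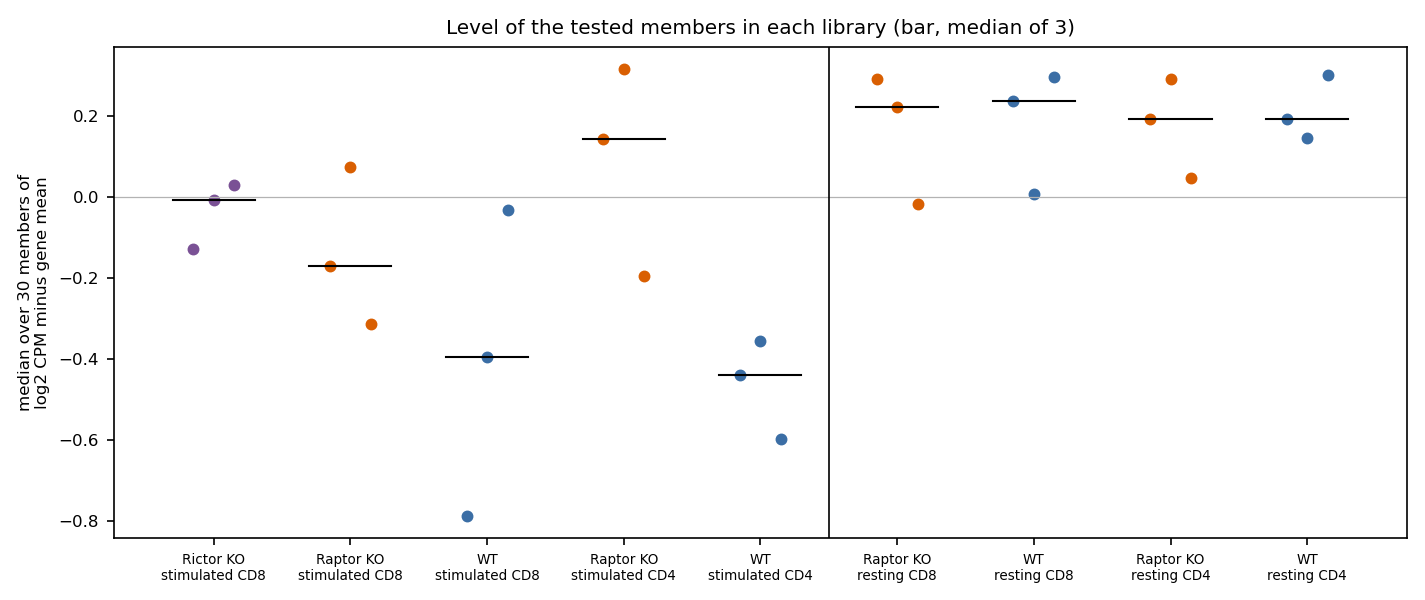
Median over the 30 tested genes of log2 CPM minus the mean of the gene, in each library (points; bar, the median of 3 libraries), by group, with stimulated groups left of the vertical line and resting groups right of it. Stimulated Raptor KO CD4+ libraries lie above all 3 stimulated WT CD4+ libraries, while stimulated Raptor KO and WT CD8+ libraries overlap, as do all resting groups.

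Rictor loss could be set against WT and against Raptor loss in stimulated CD8+ cells. Against WT, none of the 30 genes was called, where 0.162% of all genes were, with 8 at an unadjusted p under 0.05 and none called by DESeq2. The median log2 fold change was 0.23, against 0.00 over all genes, 20 of the 30 were positive, and 8 had all Rictor KO libraries above all WT libraries, where 6.6% of all genes did. Without the third WT library 5 genes were called, all higher. That library is the only one of its group with the library code of the Rictor KO libraries, so without it code and genotype cannot be told apart. Irf1 measured 66.3, 74.3 and 93.4 CPM in Rictor KO libraries, the lowest of them level with the highest WT library (log2 fold change 0.58, adjusted p = 0.248). Zbp1 measured 2.22, 4.78 and 6.26 CPM in Rictor KO libraries and overlapped with WT. Igtp measured 135, 133 and 134 CPM in Rictor KO libraries, above every Raptor KO and WT library of that culture.

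Against Raptor KO, 4 of the 30 genes were higher in Rictor KO and 2 lower, where 15.3% of all genes were called (7% higher and 8.3% lower). Zbp1 was lower (log2 fold change -2.19 ± 0.36, adjusted p = 1.79e-05), as was Irf1 (log2 fold change -0.69, adjusted p = 0.00323), with no Rictor KO library reaching the Raptor KO range. Trim30a was higher, at 41.2, 55.7 and 40.9 CPM in Rictor KO libraries, above every Raptor KO library (log2 fold change 1.05 ± 0.18, adjusted p = 4.6e-05). Igtp was higher by 0.79 ± 0.18 on the log2 scale (adjusted p = 0.00204). Stat2 measured 17.4, 25.5 and 20.7 CPM in Rictor KO libraries, all above the Raptor KO ones (log2 fold change 0.85 ± 0.26, adjusted p = 0.0188). Trim25 measured 89.8, 83.6 and 81.8 CPM in Rictor KO libraries (log2 fold change 0.60, adjusted p = 0.0022). The summed myeloid list was 51.5 to 66.6 CPM in Rictor KO libraries, with 7 of 9 genes detected, against 63.8 to 71.8 CPM in Raptor KO and 46.5 to 60.2 CPM in WT. The plasmacytoid dendritic cell list was 2.54 to 3.37 CPM in Rictor KO libraries, against 8.36 to 17.6 CPM in Raptor KO and 3.11 to 5.35 CPM in WT, with Siglech and Klk1 at 0 in all 3 groups. Their part in the result was not tested. The comparisons of Raptor KO and of Rictor KO with WT share the same WT libraries. All Rictor KO libraries carry the library code that in the other groups belongs to replicate 3, so the code and the genotype can be told apart only through those libraries.

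Between the subsets, stimulated WT CD8+ cells had 4 genes higher and 5 lower than stimulated WT CD4+ cells, where 5.18% of all genes were called (3.08% higher and 2.11% lower). Oas3 measured 9.46, 22.5 and 16.4 CPM in CD8+ libraries, against 5.84, 2.67 and 1.10 CPM in CD4+ libraries (log2 fold change 2.53 ± 0.43, adjusted p = 4.43e-05). Ifi27 and Trim30a were also higher in CD8+ cells, by 2.24 ± 0.45 and 1.73 ± 0.20 on the log2 scale (adjusted p = 0.000644 and 3.16e-08). Gbp2 was lower, at 12.2, 14.5 and 63.9 CPM in CD8+ libraries, against 106, 133 and 135 CPM in CD4+ libraries (log2 fold change -1.96 ± 0.38, adjusted p = 0.00288). The summed myeloid list was 46.5 to 60.2 CPM in stimulated WT CD8+ libraries, against 22.7 to 29.0 CPM in CD4+ ones, and 63.8 to 71.8 CPM in stimulated Raptor KO CD8+ libraries, against 45.0 to 53.8 CPM in CD4+ ones, and its part was not tested. In stimulated Raptor KO cells no gene was higher in CD8+ and 4 were lower, where 5.36% of all genes were called (2.73% higher and 2.63% lower). These were Gbp2 (log2 fold change -1.64 ± 0.40), Irf1 (-0.80 ± 0.17), Irgm1 (-0.62 ± 0.18) and Igtp (-0.61 ± 0.18). Ifi27 and Trim30a, higher in CD8+ cells of the WT genotype, measured 11.9 ± 3.05 and 22.5 ± 1.64 CPM in Raptor KO CD8+ cells and 13.3 ± 4.74 and 22.5 ± 3.21 CPM in Raptor KO CD4+ cells. In resting WT cells none of the 30 differed between subsets (3.33% of all genes called, 8 of the 30 at an unadjusted p under 0.05, none by DESeq2). In resting Raptor KO cells Ifit2 was the single call, lower in CD8+ cells by 1.04 ± 0.28 (log2 fold change -1.04, adjusted p = 0.0248; 3.15% of all genes called, 1.51% lower).

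Genes upstream of interferon-stimulated genes came from a list of 40 ligands, receptors, kinases, sensors and regulators, 35 of them tested. In stimulated CD4+ cells 9 of the 35 were higher in Raptor KO and none lower, that is 25.7% called, against 17.4% of all genes (8.82% higher), with a median log2 fold change of 0.19, against 0.04 over all genes. Ifngr2, the signalling chain of the interferon gamma receptor, averaged 23.1 ± 5.79 CPM in Raptor KO and 11.6 ± 2.06 CPM in WT (log2 fold change 0.95 ± 0.27, adjusted p = 0.00968). The feedback inhibitor Socs1 averaged 202 ± 50.8 CPM in Raptor KO and 96.9 ± 32.9 CPM in WT (1.07 ± 0.27, adjusted p = 0.00993). Nlrc5, the activator of MHC class I genes, averaged 172 ± 18.5 CPM in Raptor KO and 71.4 ± 9.67 CPM in WT (1.27 ± 0.20, adjusted p = 5.47e-05). Ddx58, which encodes the RNA sensor RIG-I, averaged 11.0 ± 3.46 CPM in Raptor KO and 4.19 ± 1.49 CPM in WT (1.45 ± 0.36, adjusted p = 0.00318). Also called were the RNA sensor gene Tlr7 (log2 fold change 2.36 ± 0.61), the repressor gene Irf2 (0.76), its partner Irf2bp2 (0.68) and the kinase gene Ikbke (0.69).

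In stimulated CD8+ cells 4 of the 35 were higher in Raptor KO and none lower, and these 11.4% lie near the 11.7% of all genes called there (6.3% higher). Jak2, a kinase of the interferon gamma receptor, averaged 100 ± 28.2 CPM in Raptor KO and 49.7 ± 19.5 CPM in WT (log2 fold change 1.00 ± 0.22, adjusted p = 0.00275), and Socs1 113 ± 18.7 CPM in Raptor KO and 59.7 ± 7.91 CPM in WT (0.92 ± 0.28, adjusted p = 0.0378). Tlr7 (2.03 ± 0.50) and Ikbke (0.79 ± 0.21) were the other two. At rest Ptpn6, the phosphatase SHP-1, was the single gene called in each subset, at 73.3 ± 19.8 CPM in Raptor KO and 31.8 ± 6.31 CPM in WT CD4+ cells and 70.5 ± 3.87 CPM in Raptor KO and 32.3 ± 5.85 CPM in WT CD8+ cells. That is 2.86% of the 35 in each subset, against 0.143% of all genes in CD4+ and 1.12% in CD8+ cells. None of the 35 had a Raptor effect that differed between the subsets past the threshold. The interferon gamma gene Ifng averaged 173 ± 60.7 CPM in Raptor KO and 130 ± 54.9 CPM in WT stimulated CD8+ cells (adjusted p = 0.468), and 7.47 ± 3.10 CPM in Raptor KO and 4.59 ± 3.28 CPM in WT stimulated CD4+ cells (adjusted p = 0.643). It was lower in Rictor KO, at 24.5 ± 4.75 CPM (log2 fold change against WT -2.42 ± 0.37, adjusted p = 0.0204). Of the receptor and kinase genes, Ifnar1, Ifnar2, Ifngr1, Jak1 and Tyk2 were called in none of the 4 Raptor comparisons. The nearest was Ifnar1 in stimulated CD4+ cells, at 37.7 ± 3.93 CPM in Raptor KO and 27.1 ± 3.56 CPM in WT (adjusted p = 0.0644).

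A second list of 84 other interferon-stimulated genes, 65 of them tested, gave 15 higher and 2 lower in stimulated Raptor KO CD4+ cells, with a median log2 fold change of 0.56. That is 26.2% called, against 17.4% of all genes (8.82% higher and 8.56% lower). The largest called were Mndal, a neighbour of Ifi203 in the PYHIN cluster with which it shares 37 exonic bases (2.23 ± 0.73, adjusted p = 0.034), the RNA helicase gene Mov10 (1.77 ± 0.34, adjusted p = 0.000209), Trim14 (1.68 ± 0.52, adjusted p = 0.017) and Trim12c (1.38 ± 0.28, adjusted p = 0.000378). The lower ones were Ly6e (-0.62) and Apobec3 (-0.43). In stimulated CD8+ cells 3 were higher and 4 lower, 10.8% against 11.7% of all genes, so the share was near the background. The median was 0.15, and the largest called were Epsti1 (-1.45 ± 0.33, adjusted p = 0.00211), Slfn2 (1.25 ± 0.18), Ly6a (-1.21 ± 0.28, adjusted p = 0.00771) and Ly6e (-1.11 ± 0.18). The Raptor effect differed between stimulated subsets for 2 of the 65, Epsti1 (-2.79 ± 0.54) and Slfn2 (1.28 ± 0.25), each with adjusted p = 0.00723. That is 3.08% called, against 0.334% of all genes. In resting CD8+ cells 1 was higher, Ly6c2 (1.45), and 3 were lower, Tent5c (-1.23), Ifi213 (-0.99) and Epsti1 (-0.81). These were 6.15% of the 65, against 1.12% of all genes. In resting CD4+ cells none of the 65 was called, where 0.143% of all genes were, with 7 at an unadjusted p under 0.05.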

How the data were processed

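The deposited table holds the authors' raw read counts per Ensembl gene, 1 column per library. STAR 2.6.0a and build GRCm38 are named in the submitters' processing notes, while the counter, its annotation and whether it used strand is not given in the sources used here. Per the labels' protocols, total RNA was fragmented, adaptors were ligated and the cDNA was amplified by PCR, so intervals and floors cover counting error only. Symbols came from GENCODE for 26753 of 26801 genes. Rn45s was left out because it took most reads and varied between libraries.

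Genes passing edgeR's filterByExpr (minimum count 10, minimum total 15) numbered 10493. They were fitted with TMM scaling and 1 mean per group over all 27 libraries, with robust quasi-likelihood tests (edgeR 4.0.16, limma 3.58.1, R 4.3.3) for 18 comparisons and Benjamini-Hochberg adjustment. The common biological coefficient of variation was 0.187. On simulated counts for the stimulated CD4+ comparison of Raptor KO with WT over 9857 genes, 61% of 2-fold and 87% of 4-fold changes were recovered with 3 false calls. A group at 0 counts was set to a limit of 3 counts over its libraries, 0.333 to 0.707 CPM, and low-count ratios have 95% exact intervals. Folds against that limit leave out the counting error of the group with counts, so the true fold may be smaller.

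Alternatives were DESeq2 1.42.0, median-ratio size factors, no filter, over 5 CPM in 3 libraries, Rn45s in the totals, a replicate block, a library code block, single-library omission, and protein-coding genes only, the last chosen after seeing the data. Values per library are given for genes past the threshold in a Raptor comparison or a difference of 2, and for the 3 highest per kilobase in each culture; elsewhere for the 4 largest called changes. The genes and lists were chosen with earlier results of these data known. Same-numbered libraries deviated together in resting Raptor KO cells of the 2 subsets (correlations 0.331, 0.215 and 0.398 over genes), so the numbers pair them there by the rule used, and the blocked fit called the same number of genes, 1. No 2 libraries of a group agreed within sampling noise. A gene of the upstream list stays in that list's counts, and its values are not reported here.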

Additional observations from a re-analysis of the deposited data

Results flagged for a closer look

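In 2 genes the effect of Raptor loss differed between stimulated CD8+ and stimulated CD4+ cells by a test of the difference itself. The CD8+ log2 fold change minus the CD4+ one was -1.73 for Trim30a and -2.39 for Ifi27. Adjusted p was 0.00197 for Trim30a and 0.0415 for Ifi27 (edgeR quasi-likelihood over all genes).

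In 10 genes the response of CD4+ cells to stimulation differed between Raptor KO and WT by the same kind of test, with the log2 change of Raptor KO minus that of WT above 0 in each. The difference was 3.22 ± 0.55 (SE) for Ifi27, 3.02 ± 0.72 for Ifi203 and 3.02 ± 0.98 for Ifi206. It was fitted at 4.99 for Ifi209, a number that depends on the model because stimulated WT CD4+ cells had no count. It was 1.81 ± 0.50 for Zbp1, 1.39 ± 0.29 for Trim30a, 1.36 ± 0.35 for Irf9, 1.17 ± 0.23 for Sp100, 1.00 ± 0.25 for Irf1 and 0.96 ± 0.24 for Parp14. The adjusted p-values ran from 0.000203 for Ifi27 to 0.0362 for Ifi206.

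In CD8+ cells the same difference was 1.90 ± 0.51 for Zbp1 (adjusted p = 0.0288) and 1.30 ± 0.25 for Irf1 (adjusted p = 0.00129). The CD8+ call of Zbp1 was lost in 7 single-library omissions, with adjusted p up to 0.124, and its CD4+ call in 4. Every comparison has groups of 3 libraries, in which no test for a single stray library was made.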

How the results depend on the processing

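The sign was followed through the alternatives for 60 single-gene calls, and none of these changed sign. For stimulation, for Rictor KO and between subsets they were the 4 largest called changes at most. Other calls were not followed, so a change of sign in them was not looked for. With Rn45s kept in the totals the number of called genes among the 30 became 3 for Raptor KO against WT in stimulated CD4+ cells and 2 in stimulated CD8+ cells. It became 0 for the difference between these effects, 1 and 0 for the genotype difference in the stimulation response of CD4+ and CD8+ cells, 4 and 1 for CD8+ against CD4+ cells in stimulated WT and Raptor KO cultures, and 0 in resting Raptor KO cultures. That setting also moved the median of all genes, so it changes what a fold is measured against. With no filter, which tests all 40 genes, the count was 1 for Raptor KO against WT in resting CD4+ cells, 2 in resting CD8+ cells, 3 for Rictor KO against WT, 11 for Rictor KO against Raptor KO and 1 for CD8+ against CD4+ cells in resting WT. In resting CD8+ cells Raptor KO against WT gave 1 with protein-coding genes only, 1 with the replicate block and 1 with DESeq2. In resting WT cells CD8+ against CD4+ gave 1 with protein-coding genes only and 2 with the replicate block. The causes were not tested.

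Leaving out 1 library at a time left 30 or 31 genes tested and gave, for Raptor KO against WT, 8 to 15 calls in stimulated CD4+ cells, 2 to 7 in stimulated CD8+ cells and 0 in resting cells of either subset. The subset difference of the effect gave 1 to 3 in stimulated and 0 in resting cells. Stimulated against resting gave 20 to 23 in WT CD4+, 19 to 22 in WT CD8+, 13 to 16 in Raptor KO CD4+ and 13 to 15 in Raptor KO CD8+ cells, and its genotype difference 7 to 10 in CD4+ and 1 to 3 in CD8+ cells. Rictor KO gave 0 to 5 against WT and 5 to 7 against Raptor KO. CD8+ against CD4+ gave 6 to 11 in stimulated WT, 1 to 4 in stimulated Raptor KO and 0 to 1 in resting cells of either genotype. The subset difference fell to 1 without any of 9 of its 12 libraries, and the CD8+ genotype difference in the stimulation response to 1, Irf1, without resting WT library 1 or resting Raptor KO library 2 or 3. Zbp1 lost that call in 7 omissions in all, in 4 of which other genes kept the count at 2 or 3. CD8+ against CD4+ reached 1 in resting WT cells without CD8+ library 3 and 0 in resting Raptor KO cells without CD4+ library 1 or 3 or CD8+ library 2 or 3. In stimulated Raptor KO cells it fell to 1 or 2 without CD4+ library 1 or 2 or CD8+ library 1, 2 or 3.

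The replicate block gave 14 calls in stimulated CD4+ cells, against 12 without it. Outside the comparison of the subsets in resting Raptor KO cells, same-numbered libraries share a number and, except for Rictor KO, a library code that the labels do not explain. There the correlations of deviations ran from -0.178 to 0.367 and passed 0.1 for all 3 numbers in no comparison, and every library matched its own number best in stimulated against resting WT CD4+ cells and between the subsets at rest. With the library code as a block Rictor KO against Raptor KO gave 9 calls, 7 higher and 2 lower. Of 60 single-gene calls, 33 were lost in at least 1 alternative, including Ifi206 (adjusted p = 0.0609) and Xaf1 (adjusted p = 0.0794) in stimulated CD4+ cells by DESeq2. The 10 genes below the filter had too few counts for the main fit and were tested only in alternatives such as the one with no filter.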
